A study of Mus musculus with 2 samples.

Results

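Mir204 and Mir211 are the genes of miR-204 and miR-211, microRNAs (miRNAs) that share a seed and lie in introns of the paralogous ion channel genes Trpm3 and Trpm1. They are 2 of the 2202 miRNA genes counted in the left cerebral cortex of male mice on postnatal day 10, and were chosen by their symbols in the GENCODE M21 annotation. The series holds 1 group of 2 biological replicates, each a B6CASTF1/J male, an F1 hybrid of the B6 and CAST strains, with 1 library per sample and no treatment named. The labels number the samples as separate males under 1 donor entry. With 1 group there is no contrast of conditions: the members are compared with each other and the libraries with each other, and p-values measure counting error in these libraries only.

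A miRNA is cut from a hairpin precursor, and one arm is loaded into an Argonaute protein, which it guides to messenger RNAs that pair with its seed, bases 2 to 8. miR-204 is known as an abundant miRNA of choroid plexus, retinal pigment epithelium and lens, and miR-211 as a miRNA of melanocytes and pigmented epithelium. Trpm3 codes for a calcium-permeable cation channel found in choroid plexus and in neurons, and Trpm1 for a channel of melanocytes and of retinal bipolar cells.

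The mature sequences are shown because they carry the relation between the members and bear on how their reads can be told apart. They are RefSeq sequences on GRCm38.p6, written 5′ to 3′ with the seed in capitals.
mmu-miR-204-5p: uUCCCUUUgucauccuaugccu
mmu-miR-211-5p: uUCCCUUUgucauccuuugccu
mmu-miR-204-3p: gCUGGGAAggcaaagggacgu
mmu-miR-211-3p: gCAAGGACagcaaaggggggc

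The 5p arms share the seed UCCCUUU and were identical at 21 of 22 positions. Counted from the 5′ end, the change from miR-204-5p to miR-211-5p is A17U, so the arms share their first 16 bases. The 3p arms were identical at 14 of 21 positions, and their seeds, CUGGGAA and CAAGGAC, differ. Among 1738 mature arms in the RefSeq table, 1 other has the shared 5p seed, mmu-miR-7670-3p, and 1 other has the seed of miR-204-3p, mmu-miR-7684-5p. The genes of those arms, Mir7670 and Mir7684, had 0 reads in each library, which allows up to 1.71 CPM in replicate 2 and 1.12 CPM in replicate 1. CPM are reads on the gene's own strand (sense reads) per 1000000 such reads over all miRNA genes, and the allowance is the level of 3 reads.

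The hairpins, in which reads were counted, are shown with both mature arms in capitals.
Mir204, chr19:22750605-22750672, plus strand: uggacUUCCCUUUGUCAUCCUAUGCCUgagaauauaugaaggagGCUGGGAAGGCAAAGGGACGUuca
Mir211, chr7:64205806-64205911, plus strand: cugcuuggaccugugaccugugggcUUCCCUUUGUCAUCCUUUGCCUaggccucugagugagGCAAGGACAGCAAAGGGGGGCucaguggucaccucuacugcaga

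The longest stretch that the hairpin of Mir204 shares with any of the other 1004 hairpins in the RefSeq table was 17 bases, and it was shared with Mir211. The tables give multiply mapped reads in a row of their own, apart from the genes. A 5p read that ends within the shared bases fits both genes, and how many such reads there were was not tested. A count per hairpin sums its arms, so arms cannot be told apart here.

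Each hairpin lies on the strand of its host, between exons of the same lengths in both hosts. Mir204 (ENSMUSG00000065507.3) lies in the intron between exons 6 and 7 of the transcript Trpm3-201, and Mir211 (ENSMUSG00000065585.1) in the intron between exons 6 and 7 of Trpm1-201. The upstream exon is 172 bases long in each host and the downstream exon 175 bases. Between Trpm3 and Trpm1, the upstream exons were identical at 132 of 172 positions (76.7%) and the downstream exons at 120 of 175 positions (68.6%). Neither hairpin overlaps an exon of its host, in 24 transcripts of Trpm3 and 23 of Trpm1. Of the 18 Trpm3 transcripts that span Mir204, 14 have this intron, as do 9 of the 12 Trpm1 transcripts that span Mir211.

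The introns themselves differ in size. That of Trpm3 is 33462 bases long and Mir204 begins 17433 bases into it. That of Trpm1 is 3682 bases long and Mir211 begins 1212 bases into it. Of 8 Trpm genes looked up, 3 have neighbouring exons of 172 and 175 bases, and the intron of the other one, Trpm7, holds no listed miRNA gene. Trpm3 holds no other listed miRNA gene, while Trpm1 holds Mir6416 on the opposite strand, which had 0 reads in each library.

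**Figure D1:**
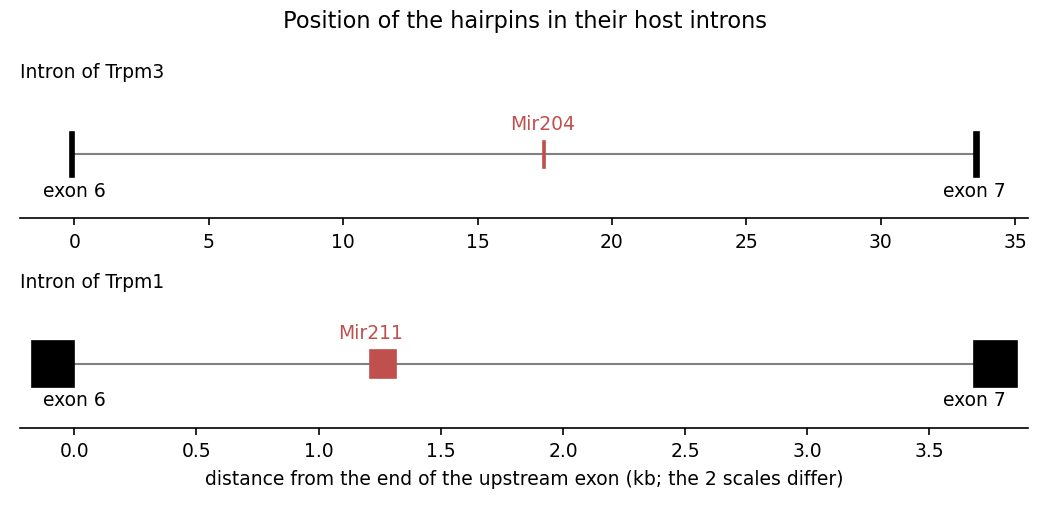
The introns of Trpm3 (top) and Trpm1 (bottom) each drawn to its own scale, with the distance from the end of the upstream exon in kb on the horizontal axis. Black boxes are exons 6 and 7 and red boxes the hairpins; the Trpm3 intron is 33462 bases long and the Trpm1 intron 3682.

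Mir204 was well expressed, while Mir211 was at the limit of detection in both libraries. Mir204 had 2058 sense reads in replicate 2 and 2076 in replicate 1. Its level was 1176 CPM in replicate 2 (95% Poisson interval 1126 to 1228) and 775 CPM in replicate 1 (742 to 809), a mean of 976 ± 283 CPM (SD, n = 2). Replicate 2 was the higher library and the intervals do not overlap. In percent of sense reads, Mir204 took 0.118% in replicate 2 and 0.0775% in replicate 1.

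Mir211 had 2 sense reads in replicate 2 and 3 in replicate 1. Its level was 1.14 CPM in replicate 2 (95% Poisson interval 0.138 to 4.13) and 1.12 CPM in replicate 1 (0.231 to 3.27). Both values are at or under the level of 3 reads, so no fold between libraries is given, and whether miR-211 was present cannot be said at this depth. All intervals given here cover counting error only. PCR copies of 1 molecule can be counted as separate reads, which would make the intervals too narrow.

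Neither member had a read on the opposite strand, and the counts made without regard to strand equalled the sense counts in both libraries. The depth was 1750076 sense reads in miRNA genes in replicate 2 and 2677910 in replicate 1. Multiply mapped reads took up 28.3% of replicate 2 and 38.2% of replicate 1. Unmapped reads took up 42.4% of replicate 2 and 25.5% of replicate 1.

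**Figure D2:**
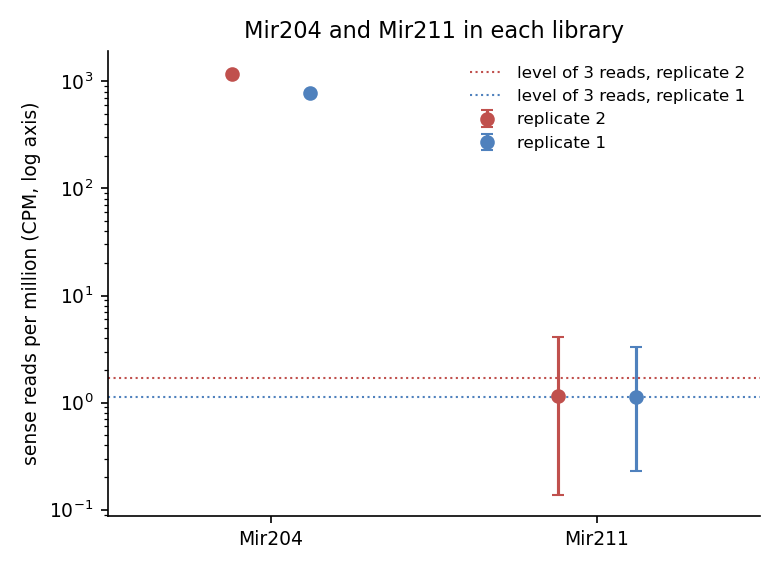
Levels of Mir204 and Mir211 in CPM on a log axis, replicate 2 in red and replicate 1 in blue, with 95% Poisson intervals as bars and the level of 3 reads in each library as dotted lines. Mir204 sits at 1176 and 775 CPM, and Mir211 at 1.14 and 1.12 CPM with intervals that span the dotted lines.

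Mir204 had 1029 reads for each read of Mir211 in replicate 2 (95% exact binomial interval 284 to 8502) and 692 in replicate 1 (236 to 3358). Mir211 made up 0.0971% of the reads of the pair in replicate 2 (95% exact binomial interval 0.0118 to 0.350) and 0.144% in replicate 1 (0.0298 to 0.421). The odds of a read coming from Mir204 were 1.49 times as high in replicate 2 as in replicate 1 (95% exact interval 0.170 to 17.8; two-sided Fisher's exact test, p = 1). With 2 and 3 reads of Mir211 that interval is wide, and a difference in the ratio was not detectable at this depth. The 5p arms differ at 1 base, and whether any read counted for Mir211 came from Mir204 was not tested.

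By level, Mir204 ranked 100 among the 2202 genes in replicate 2 and 122 in replicate 1, and 108 by mean. Of the 442 genes detected in both libraries, meaning at 2 CPM or more in each, 75.6% had a lower mean. Its neighbours in the order of mean level were Mir1249 at 989 ± 20.6 CPM and Mir497 at 957 ± 71.5 CPM (SD, n = 2). Both lie within the SD of Mir204, so the order of these 3 genes is not settled by the replicates. Mir211 ranked 518 in replicate 2 and 543 in replicate 1, and 1458 genes had no read at all.

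The genes whose levels were most like those of Mir204 over the 2 libraries were Mir665, Mir673, Mir29a, Mir27b and Mir15b. Likeness was the distance in log2(CPM + 1) over both libraries, and these 5 lay within 0.303. Mir665 had 1086 CPM in replicate 2 and 781 CPM in replicate 1, and Mir29a 1249 and 907 CPM. Mir211 shared its exact counts with 7 genes, Mir199a-2, Mir1951, Mir6903, Mir6946, Mir6951, Mir7085 and Mir8103. With 2 libraries, such likeness says that levels were close and no more.

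Mir204 was 1.52-fold higher in replicate 2 than in replicate 1, a log2 ratio of 0.60 (95% exact binomial interval 0.51 to 0.69). Fisher's exact test on its reads gave an adjusted p of 1.29e-39, with Benjamini-Hochberg adjustment over the 542 genes at 2 CPM or more in either library. It passed on p, which 17.3% of tested genes did in the direction of replicate 2, but missed the log2 ratio of 1 that was also asked of a called gene. With both conditions 12.0% of tested genes were called, and 5.72% were called as higher in replicate 2. What is compared is a pair of libraries, not a pair of conditions.

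Many genes differed more between the libraries than Mir204 did. The median size of the log2 ratio was 0.35 over the 442 detected genes, and 135 of them (30.5%) had a larger one than Mir204. Of 64 other genes within 2-fold of its mean level, the median size was 0.31, and 15 had a larger ratio. Of those 64 genes, 33 were higher and 31 lower in replicate 2.

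**Figure D3:**
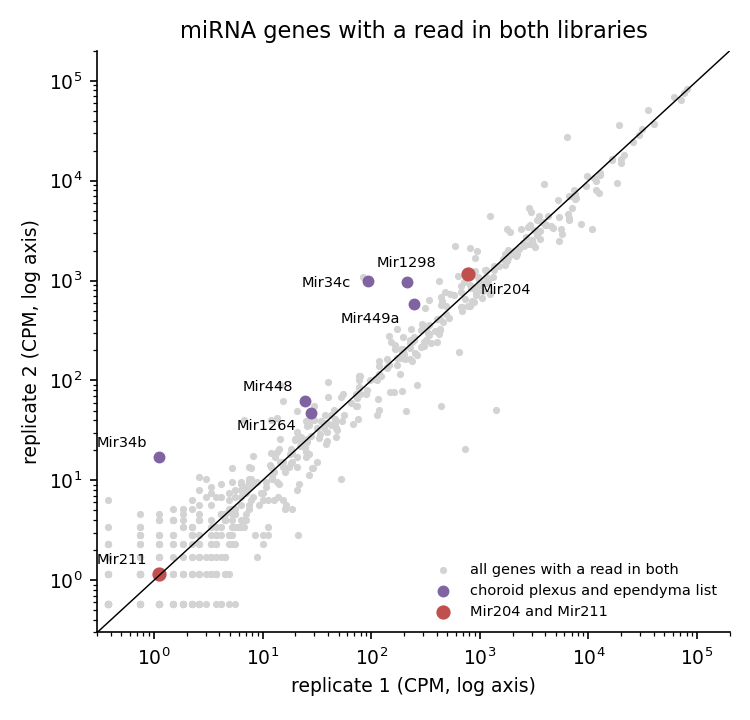
CPM of each miRNA gene with a read in both libraries, replicate 1 on the horizontal and replicate 2 on the vertical log axis, with the line of equal level. Mir204 (red, 1176 CPM in replicate 2 and 775 CPM in replicate 1) lies just above the line, Mir211 lies on it at about the level of 3 reads, and genes of the choroid plexus and ependyma list (purple) lie above it.

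Because miR-204 is known from choroid plexus, it was set beside a list of miRNA genes associated with choroid plexus, ependyma and other ciliated cells. The list holds Mir34b, Mir34c and the Mir449 genes, which are known for their role in ciliated cells, and some of the hairpins in introns of the serotonin receptor gene Htr2c, which is strongly expressed in choroid plexus. Of 10 symbols, 9 were matched, 8 were tested and 5 were detected in both libraries. The summed level of the 9 genes was 2678 CPM in replicate 2 and 611 CPM in replicate 1, a 4.39-fold difference where that of Mir204 was 1.52-fold. In reads, Mir204 had 0.439 for each read of the list in replicate 2 and 1.27 in replicate 1. Mir204 and the list's sum were both higher in replicate 2.

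Mir34c had 993 CPM in replicate 2 and 93.4 CPM in replicate 1, a log2 ratio of 3.41 (95% interval 3.22 to 3.61). Mir1298, in an intron of Htr2c, had 973 CPM in replicate 2 and 213 CPM in replicate 1, a log2 ratio of 2.19 (2.05 to 2.33). Mir449a had 578 and 249 CPM, a log2 ratio of 1.21 (1.07 to 1.36), and Mir448 had 61.7 and 24.6 CPM, a ratio of 1.32 (0.87 to 1.79). These 4 genes were called and rose in replicate 2. Mir1264 had 46.9 and 28.0 CPM, and its log2 ratio of 0.74 missed the threshold as that of Mir204 did. Of the Htr2c hairpins that the list does not hold, Mir764 had 25.1 CPM in replicate 2 and 19.8 CPM in replicate 1. Its log2 ratio was 0.35 (95% interval -0.27 to 0.95), and it was not called. Gm22650, with 5 reads in replicate 2 and 2 in replicate 1, was tested and not called, and Gm24627 had no read.

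The other called genes of the list, Mir34b, Mir1912 and Mir449c, entered the test through replicate 2 alone, so they could only be higher there. For Mir34b there were 30 reads in replicate 2 against 3 in replicate 1, a log2 ratio of 3.74 with 0.5 reads added to each count (95% interval 2.25 to 6.29). Counted without regard to strand, the log2 ratio of Mir34b was 2.88, from 31 reads in replicate 2 and 6 in replicate 1. Mir1912 and Mir449c had 8 and 6 reads in replicate 2 and 0 in replicate 1. Their CPM in replicate 2 were 4.08 and 3.06 times the level of 3 reads in replicate 1. With counting error in both libraries, the 95% intervals of their log2 ratios began lower, at 1.39 and 0.85. Mir449b, which was not tested, had 0 reads in replicate 2 and 3 in replicate 1.

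The choroid plexus and ependyma list was chosen with earlier results of these data known, so its counts describe it and do not test it. Of the 5 list genes detected in both libraries, 4 were called as higher in replicate 2, where 5.43% of the 442 detected genes were. With every hairpin in Htr2c introns added, it was 4 of 6, and the summed level was 4.29-fold higher in replicate 2. The log2 ratio of the 5 detected genes ran from 0.74 to 3.41, and with Mir764 it began at 0.35. The ratio of Mir204, 0.60, lies below that of each detected list gene but above that of Mir764, and within the intervals of Mir1264 (0.27 to 1.21) and Mir764. Which cells the reads of Mir204 came from was not tested, and in a bulk sample more cells of a type and more RNA per cell cannot be told apart.

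**Figure D4:**
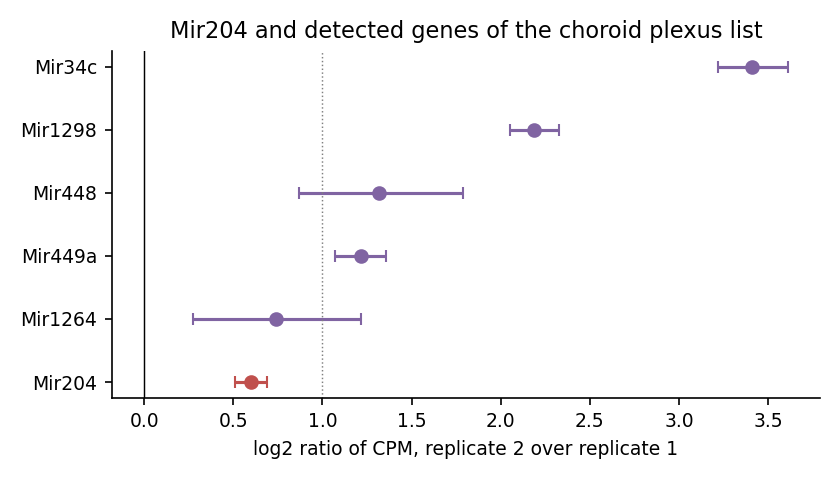
Log2 ratio of CPM, replicate 2 over replicate 1, for Mir204 (red) and the 5 genes of the choroid plexus and ependyma list detected in both libraries (purple), with 95% exact binomial intervals. The dotted line marks the threshold of 1; Mir204 at 0.60 and Mir1264 at 0.74 lie below it and Mir34c at 3.41 farthest above.

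A list of 12 neuronal miRNA genes was also looked at, which is not specific to cortex and so does not check the tissue label. All 12 were detected in both libraries, where 442 of the 2202 genes were. The summed level of the 12 was 35799 CPM in replicate 2 and 46048 CPM in replicate 1. Mir128-1, the highest of them, had 9510 CPM in replicate 2 and 18242 CPM in replicate 1, and Mir137 had 8069 and 11808 CPM. Of the list, Mir132 was called higher in replicate 2 and Mir153 lower. That is 1 gene of 12 in each direction, where 12.0% of all tested genes were called in either. On adjusted p alone in Fisher's exact test, 1 was higher in replicate 2, where 17.3% of all tested genes were. On the same measure 7 were lower, and the share of all tested genes that were lower was not computed. Of 249 tested genes in introns of same-strand protein-coding genes, 48 were lower and 45 higher on it. The median log2 ratio of the 12 was -0.30, against -0.09 over all 542 tested genes.

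The oligodendrocyte list was 1.71-fold higher in replicate 2, against 1.52-fold for Mir204, with a sum of 1423 CPM in replicate 2 and 834 CPM in replicate 1. Of its genes, Mir338 had a log2 ratio of 0.69 (95% interval 0.57 to 0.80) and Mir219a-2 one of 0.92 (0.80 to 1.05), and neither was called. The interval of Mir338 overlaps that of Mir204. The remaining gene of that list, Mir219a-1, had 17.1 CPM in replicate 2 and 20.9 CPM in replicate 1, a log2 ratio of -0.28 (-0.98 to 0.38). The endothelial gene Mir126a had 11137 CPM in replicate 2 and 9622 CPM in replicate 1. The microglia and leukocyte list summed to 6881 CPM in replicate 2 and 8755 CPM in replicate 1. None of its 5 tested genes was called, where 12.0% of all tested genes were. The erythroid list, which marks blood, summed to 56.6 CPM in replicate 2 and 814 CPM in replicate 1. Of its 3 tested genes, Mir451a and Mir144 were called lower, where 12.0% of all tested genes were called in either direction. Mir451a alone had 20.6 CPM in replicate 2 and 737 CPM in replicate 1, while Mir486 had 25.7 and 25.4 CPM. The part of any of these lists in the difference at Mir204 was not tested.

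Lists for the eye and for the meninges and vessel wall were also looked at. The eye and sensory list summed to 59.4 CPM in replicate 2 and 72.4 CPM in replicate 1, led by Mir184, a miRNA of cornea and lens, at 38.3 and 46.7 CPM. Of its 3 tested genes none was called, where 12.0% of all tested genes were. Mir96 had 1 read in replicate 2 and 0 in replicate 1. The meningeal fibroblast and mural list summed to 4398 CPM in replicate 2 and 4197 CPM in replicate 1, most of it from Mir143 at 3872 and 3821 CPM. Without Mir143 the sum was 525 CPM in replicate 2 and 376 CPM in replicate 1. Of its 5 tested genes none was called, and with so few genes these counts say little about either list. Mir214 had 277 CPM in replicate 2 and 146 CPM in replicate 1. Its log2 ratio was 0.92, with an adjusted p of 4.53e-20 in Fisher's exact test. Mir199a-1 had 0 counted reads in each library, which allows up to 1.71 CPM in replicate 2 and 1.12 CPM in replicate 1. The count leaves out multiply mapped reads, and whether any of those came from Mir199a-1 was not tested. The part of these lists in the difference at Mir204 was not tested either.

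Among miRNA genes in introns of a set of ion channel and receptor genes, Mir204 had the highest level in each library and Mir211 the lowest mean of those with a read. The hosts were taken by symbols starting Trpa, Trpc, Trpm, Trpv, Kcn, Cacn, Scn, Gabr, Gria, Grik, Grin, Grid or Htr. Other channel and receptor families were left out. There were 18 such hairpins in 10 host genes, 8 of them detected in both libraries. Mir204 was followed by Mir1298 at 593 ± 537 CPM and by Mir346, in Grid1, at 357 ± 87.5 CPM (SD, n = 2). The level of Mir204 lies within the SD of Mir1298, although Mir204 was the higher of them in each library. Mir448, also in Htr2c, came next at 43.2 ± 26.2 CPM. Mir211 ranked 12, and the 6 hairpins below it had no read. Among all 741 hairpins in introns of same-strand protein-coding genes, Mir204 ranked 38 and Mir211 255, and 398 (53.7%) had no read.

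The gap between Mir204 and Mir211 was set beside that of other miRNA families inside paralogous genes, of which Mir26a-2 overlaps an exon in at least 1 transcript. Mir128-1 and Mir128-2, in R3hdm1 and Arpp21, differed by 2.89-fold in replicate 2 (95% exact binomial interval 2.80 to 2.98) and 3.24-fold in replicate 1 (3.18 to 3.30). Mir107, in Pank1, had 335 reads for each read of Mir103-1, in Pank3, in replicate 2 (223 to 529) and 238 in replicate 1 (141 to 435). Against Mir103-2, in Pank2, it had 64.8 in replicate 2 (54.0 to 78.3) and 30.8 in replicate 1 (25.4 to 37.7).

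Mir26b, in Ctdsp1, had 46.2 reads for each read of Mir26a-1, in Ctdspl, in replicate 2 (39.4 to 54.4) and 453 in replicate 1 (332 to 638). Against Mir26a-2, in Ctdsp2, it had 68.0 in replicate 2 (56.2 to 83.0) and 431 in replicate 1 (318 to 601). The ratio of Mir204 to Mir211 was the highest of these 6 pairs in each library, but its interval overlaps that of Mir107 and Mir103-1 in both libraries and those of Mir26b with each Mir26a gene in replicate 1. The hairpins of Mir128-1 and Mir128-2 share a stretch of 23 bases and those of Mir107 and either Mir103 gene 24, longer than the 17 bases shared by Mir204 and Mir211. Mir26b shares shorter stretches, 11 bases with Mir26a-1 and 10 with Mir26a-2. Stretches shared between Mir26a-1 and Mir26a-2, or between Mir103-1 and Mir103-2, were not compared. A read that fits more than 1 gene, in a pair above or among the Mir26a or Mir103 genes, would fall among multiply mapped reads. The ratios are therefore of the reads left in each gene and may not be ratios of level. The part of multiply mapped reads in these ratios was not tested.

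**Figure D5:**
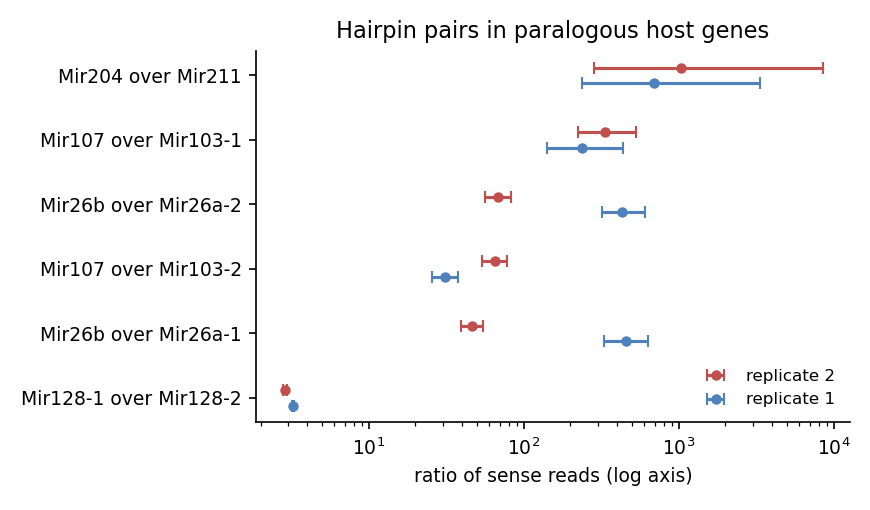
Ratio of sense reads, on a log axis, between hairpins in paralogous host genes, replicate 2 in red and replicate 1 in blue, with 95% exact binomial intervals. Mir204 over Mir211, at 1029 and 692, is the highest pair in each library and has the widest interval; Mir128-1 over Mir128-2, at 2.89 and 3.24, is the lowest.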

How the data were processed

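Raw counts of reads for each miRNA gene were deposited by the authors, made against mm10 and GENCODE M21 per the notes they deposited beside the tables. The sources used here do not name the aligner, the counter or the trimming. Each table has an unstranded and 2 stranded columns without names. The stranded column with the larger sum over genes was taken as sense, and CPM were computed over its sum. The 4 rows per table that name no gene were left out; the shares of unmapped and multiply mapped reads are in the report, and mapped reads outside the listed genes were 5.74% and 6.93% of reads in replicates 2 and 1. CAST alleles that differ from mm10 were not taken into account. All 2202 identifiers matched GENCODE M21, and both members matched RefSeq (GRCm38.p6) by symbol and position.

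For log2 ratios (replicate 2 over replicate 1), 0.5 reads were added to each count. Fisher's exact test (two-sided) was run on all genes reaching 2 CPM in at least 1 library, with Benjamini-Hochberg adjustment over them. To be called, a gene needed an adjusted p below 0.05 plus a log2 ratio at or beyond 1 in either direction. Of the steps, only the test between libraries was run on simulated counts, which held counting error and no variation between replicates. Named were the members, genes sharing a seed, the 5 nearest genes and their ties, and up to 4 leading genes per list; other names were chosen after their values were seen. The members and the 9 lists were chosen with earlier results of these data known. Python 3.11.15, scipy 1.17.1, Biopython 1.88, edgeR 4.0.16 and DESeq2 1.42.0 were used, the last 2 for scaling alternatives.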

Additional observations from a re-analysis of the deposited data

How the results depend on the processing

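The level of Mir204 was 436 CPM with reads mapped to more than 1 place added to the total and 1909 CPM without the 10 most abundant genes in it, and that of Mir211 0.504 and 2.20 CPM. With the unstranded column the level of Mir211 was 1.21 CPM. Leaving out each replicate in turn gave 775 to 1176 CPM for Mir204, 1.12 to 1.14 CPM for Mir211 and 692 to 1029 for their ratio of reads. The log2 ratio of Mir204 between the libraries ran from 0.59 to 0.67 over the 6 alternatives run, which were the unstranded column, TMM, DESeq2 size factors, 1 read added, a 10 CPM minimum and no minimum, and missed the threshold of 1 in each. TMM and DESeq2 shifted all ratios by 0.05 and 0.07, and called genes numbered 53 to 65. Of the choroid plexus and ependyma list, 7 genes were called in 5 of the 6 alternatives and 5 with the 10 CPM minimum, under which Mir1912 and Mir449c were not tested. With every hairpin in Htr2c introns on the list, a choice made after seeing the data, 7 were called. No paired analysis was possible because there is 1 group. Mir211, with 2 and 3 reads, is limited by depth.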
